A study of Caenorhabditis elegans with 2 samples.

Results

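The worm X chromosome carried 210 of the 1030 reproducible peaks found by chromatin immunoprecipitation and sequencing (ChIP-seq) of NHR-11. Members were chosen by position alone, as every region of the reproducible list on the ce11 build that lay on X. The other 820 regions lay on the 5 autosomes. All animals were Caenorhabditis elegans of strain OP305, which carries the unc-119(ed3) III mutation and wgIs305, an integrated transgene that adds a copy of nhr-11 tagged with eGFP. They were L3 larvae, harvested as whole organisms from pooled males and females, and 2 biological replicates formed the only group. The labels name nhr-11 as the antibody and an eGFP fusion as the target, so the epitope is not settled. The fragment size range in the labels is 150 to 350 bases. The genotype lists no change of the resident nhr-11 gene, the proportion of males (which have a single X) is not given, and whole larvae mix all tissues, so cell types cannot be told apart. The control library was not analysed here.

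NHR-11 belongs to the nuclear hormone receptors, a family of transcription factors that is greatly expanded in nematodes and that binds DNA through zinc fingers. The X chromosome of the worm has a regulator of its own. In XX animals a condensin-based dosage compensation complex is loaded at recruitment sites on X and spreads from them, which lowers transcription from both X chromosomes. Known recruitment sites share a sequence motif whose core is GCGCAGGG, and a longer form of the motif adds TC before the core and AG after it. The gene xol-1, on X, is the switch that sets sexual fate and dosage compensation in the early embryo.

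X peaks had slightly higher signals than autosomal peaks. They were less often at gene starts, on a chromosome where less of the sequence lies near gene starts. Among the 20 leading X peaks 15 were intergenic and 5 at gene starts, and among the 20 leading autosomal peaks 14 and 12. These classes overlap, and 20 peaks are a larger part of the 210 on X than of the 820 on autosomes. The 8-base core GCGCAGGG lay within 50 bases of the summit in 8 of the 20 strongest X peaks. The same word was at 12 of 210 X summits and at 1 of 820 autosomal summits. A weaker set of 21 X peaks lay at tRNA genes. No test was made on these differences, because X is a single chromosome and its peaks are not separate samples. Shares are given with 95% Wilson intervals, which cover counting error only, beside the values of the autosomes and of each replicate.

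The 14 copies of the core found within 50 bases of an X summit are shown first, because the strongest results on X turn on them. Each is written 5′ to 3′ on the strand of the core, which is in capitals, with 10 bases to each side. The sequences are those of the RefSeq genome WBcel235, the same build as ce11, and each name gives the rank of the peak by signal among the 210 on X and the position of the core.
Peak 2, chrX:8036401-8036408, reverse strand: attttttatcGCGCAGGGacgtatgtcg
Peak 3, chrX:6296548-6296555, forward strand: tttacatttgGCGCAGGGggtcaccata
Peak 3, chrX:6296576-6296583, forward strand: gataggtatcGCGCAGGGaagatttacc
Peak 4, chrX:11094226-11094233, reverse strand: ggaaccattcGCGCAGGGacacctcact
Peak 10, chrX:2997123-2997130, reverse strand: taaatttatcGCGCAGGGaggaagtagc
Peak 12, chrX:4209266-4209273, reverse strand: tgccgctatcGCGCAGGGacacctcttt
Peak 13, chrX:14525900-14525907, reverse strand: attgcctatcGCGCAGGGacagatgtgg
Peak 15, chrX:806674-806681, forward strand: tgcgattatcGCGCAGGGgtgtttgttg
Peak 15, chrX:806750-806757, forward strand: aaaccgatacGCGCAGGGaaaaaaaaat
Peak 19, chrX:1345056-1345063, forward strand: aatgtcattcGCGCAGGGcagctgagcc
Peak 62, chrX:2997298-2997305, reverse strand: agatcgtatcGCGCAGGGaggaagtatg
Peak 74, chrX:2364899-2364906, reverse strand: aaataattaaGCGCAGGGatatatagta
Peak 93, chrX:13514558-13514565, forward strand: tacctttatcGCGCAGGGatattgaaat
Peak 196, chrX:4395615-4395622, forward strand: aaggagacaaGCGCAGGGagaactggtg
The copies are alike beyond the core as well. The dinucleotide TC stood directly before the core in 10 of the 14 copies, and T stood 4 bases before it in 10. An A followed the core in 11 of 14. Among the 67 copies on X that were not near a reproducible summit, TC came before the core in 9 (13.4%) and A came after it in 23 (34.3%). Some of the 67 still lie close to peaks, since 18 X copies were within 100 bases of a reproducible summit. The longer form, with TC before and AG after, occurred 3 times on X and 0 times on autosomes, and 2 of the 3 were the copies at peaks 10 and 62. This look at the neighbouring bases was added after the data were examined, and peaks 10 and 62 overlap, so the 14 copies are not independent.

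Of the 12 peaks that hold these copies, 8 were among the 20 strongest on X. The 12 peaks had a median signal of 244.9, with values from 57.1 to 394. The median was 75.3 for the 198 X peaks without the core within 50 bases of the summit. Signal here is the value the authors' caller gave each region from the sample and control alignments, on a scale that was not stated. Of the 12, 8 were in the strongest 103 peaks of the whole list, that is, the strongest 10%. Their summits were intergenic in 9 cases and in an intron in 3, and 2 lay in a gene start window, where 49.6% of all 1030 peaks lay. A gene start window runs from 1000 bases upstream to 500 bases downstream of the annotated start of a protein-coding gene.

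Peak 2, at chrX:8036311-8036410, had a signal of 394 in the pooled list, 187.9 in replicate 1 and 206 in replicate 2. Its summit was intergenic, 4938 bases upstream of the start of xol-1. Peak 3, at chrX:6296387-6296742, had a signal of 373, with 195 and 180.3 in the replicates. It lay in an intron and held a pair of core copies, and the nearest start was that of cest-16, a gene of the carboxylesterase family, 3377 bases away. Both peaks were among the 12 strongest regions of the genome in each replicate alone.

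Peak 4, at chrX:11094019-11094374, had a signal of 354, with 170.9 in replicate 1 and 184 in replicate 2. Its summit was intergenic, with W02H3.3 the nearest gene start at 3989 bases. Peak 10, at chrX:2996937-2997292, had a signal of 278 (137 and 150.5 in the replicates), and peak 62, whose summit was 203 bases away, had 99.5 (46.5 and 34.2). Both lay in an intron near Y41G9A.17. Peaks 4 and 10 were among the 25 strongest regions in each replicate, and peak 62 ranked 317 and 690.

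Among the other core peaks, peak 12 had a signal of 259 (136 and 124) and was intergenic, 1772 bases upstream of F20B6.9. Peak 13 had 249 (151.6 and 99.7) and lay 740 bases upstream of nspc-17, in its start window. Peak 15, with 241 (121.9 and 117), held a pair of core copies and was 3938 bases from the start of gtr-1. Peak 19, with 183 (106 and 73.8), lay in the start window of ins-39, 630 bases upstream of this insulin-like peptide gene. All of these were in the strongest 103 regions of each replicate.

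The remaining 3 core peaks were weaker. Peak 74 had a signal of 92.8 (42.1 and 50.3) and lay near T24D8.6. Peak 93 had 80.8 (26.2 and 55.4) and lay 3510 bases upstream of the collagen gene col-185. Peak 196 had 57.1 (35.2 and 19.5) and was 6231 bases from the start of dpy-23. Peak 93 ranked 1452 in replicate 1 and peak 196 ranked 3195 in replicate 2, both outside the strongest 1030 regions of that replicate, while the other 10 core peaks were inside in both.

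**Figure D1:**
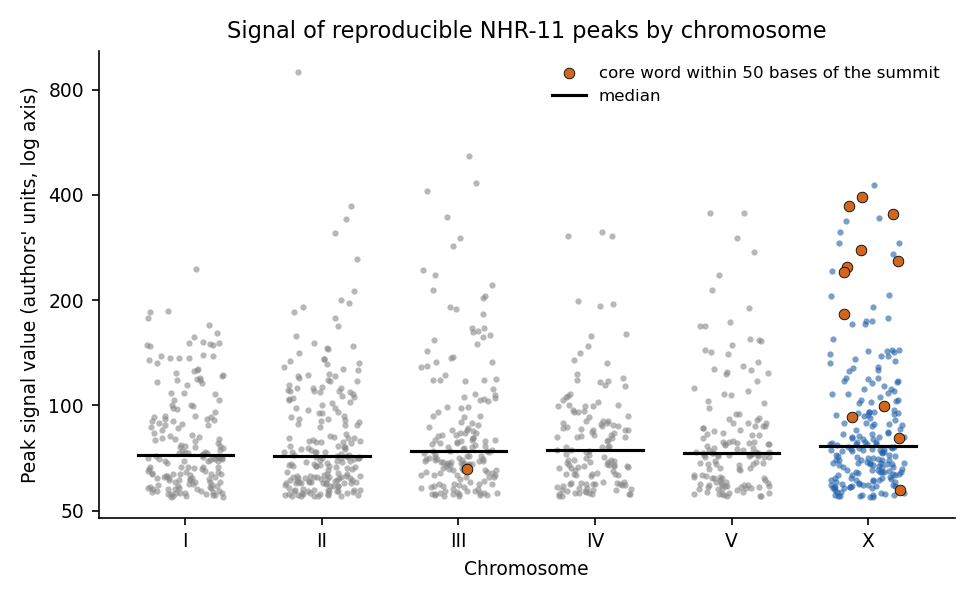
Signal of each reproducible peak (authors' units, log axis) by chromosome, with 1 point per peak, a black line at the median, and orange points for peaks with the core word within 50 bases of the summit. The X median is 76.6, the 12 orange X points run from 57.1 to 394, and the single orange autosomal point is at 65.8.

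The one autosomal peak with the core near the summit was on chromosome III, at 5080644 to 5080999. It had a signal of 65.8 and rank 701, and lay 902 bases upstream of cox-6A. In the windows placed 300 bases to each side of the summits, the core was found in 0 of 420 windows on X and in 1 of 1640 on autosomes. The share of X summits with the core was 5.71% (3.30 to 9.72) and the share of autosomal summits was 0.122%. The word was in no window around the 20 strongest autosomal summits.

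Seen from the sequence, X held 81 copies of the core, 4.57 per megabase, and the autosomes held 233 copies, 2.82 per megabase. Of the X copies 14 (17.3%, 10.6 to 26.9) were within 50 bases of a reproducible summit, and of the autosomal copies 1 (0.429%, 0.0758 to 2.39). With the strongest 1030 regions of each replicate alone, 12 X copies were near a summit in replicate 1 and 14 in replicate 2, against 0 and 1 autosomal copies. The other 67 X copies were away from reproducible summits. Of these 7 were within 50 bases of any pooled candidate summit, and the best of these candidates ranked 1816. Of the copies at summits 10 were intergenic, 4 intronic and 0 in coding sequence, and of the other 67 there were 34, 19 and 9. The distance between copy and summit had a median of 23 bases, from 8.5 to 45.5, and 7 of the 14 copies lay within 20 bases.

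A looser search, added after the data were examined, allowed a mismatch at 1 base of the core. It found a match at 30 of 210 X summits (14.3%, 10.2 to 19.7) and at 46 of 820 autosomal summits (5.61%), with shares from 3.01% to 7.51% on the single autosomes and of 1.19% and 1.04% in the flanks of X and autosomal peaks. It was met by 15 of the 20 leading X peaks and by 2 of the 20 leading autosomal peaks. An exact core also counts as a match, and 8 of the 15 had one. Among the 198 X peaks without the exact core near the summit, 18 (9.09%, 5.83 to 13.9) had a match. Taking the whole peak in place of the 50 bases around the summit, the exact core was in 18 X peaks (8.57%) and 2 autosomal peaks (0.244%). By that count it was in 11 of the 20 strongest X peaks and in 0 of the 20 strongest autosomal peaks. Peaks 2 and 164 overlap, and the core copy of peak 2 lies in both, so that copy was counted for each.

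Windows of 50 bases to each side of the summit follow on the forward strand for X peaks with no exact core within that distance. They are the 4 strongest such peaks and, among the 20 strongest, those at gene starts. Capitals mark stretches that differ from the core, on either strand, at 1 base.
Peak 1, chrX:13700817-13700917, signal 426: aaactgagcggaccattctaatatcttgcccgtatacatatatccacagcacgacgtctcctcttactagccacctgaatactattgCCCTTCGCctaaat
Peak 5, chrX:16929664-16929764, signal 343: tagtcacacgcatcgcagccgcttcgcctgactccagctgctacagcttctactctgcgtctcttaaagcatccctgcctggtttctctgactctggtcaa
Peak 6, chrX:12363108-12363208, signal 338: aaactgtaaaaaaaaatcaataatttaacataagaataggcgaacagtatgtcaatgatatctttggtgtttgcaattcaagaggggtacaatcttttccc
Peak 7, chrX:9465813-9465913, signal 313: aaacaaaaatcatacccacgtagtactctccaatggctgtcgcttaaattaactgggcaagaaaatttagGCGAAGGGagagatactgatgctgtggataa
Peak 8, chrX:5841252-5841352, signal 292: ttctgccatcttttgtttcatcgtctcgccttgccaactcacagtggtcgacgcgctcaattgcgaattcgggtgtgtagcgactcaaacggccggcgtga
Peak 18, chrX:14818974-14819074, signal 191: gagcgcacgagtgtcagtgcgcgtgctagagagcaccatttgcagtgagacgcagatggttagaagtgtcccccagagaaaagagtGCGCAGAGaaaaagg
Peak 20, chrX:15607653-15607753, signal 177.9: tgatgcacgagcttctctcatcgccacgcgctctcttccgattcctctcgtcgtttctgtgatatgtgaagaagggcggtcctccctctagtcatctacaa
Peaks 1, 7 and 18 had 1 such stretch each, and peaks 5, 6, 8 and 20 had 0. The letters say nothing of whether a factor binds there. Nor do they show whether the core lies further out in the peak, as in some of the 20 strongest X peaks.

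Peak 1, the highest on X, had a signal of 426 and 218 in replicate 1 and 210.2 in replicate 2. It was intergenic at chrX:13700689-13701044, 6040 bases upstream of K02D3.1, and ranked 3 and 5 in the replicates. Peak 5 had 343 (194 and 154), peak 6 had 338 (135 and 206) and peak 7 had 313 (146 and 159.7). All of them were intergenic and outside gene start windows, nearest to C30E1.4, F19H6.5 and ZK899.6. Peak 6 was the least even of the 4, ranking 28 in replicate 1 and 7 in replicate 2.

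Peaks 9 and 11 were also intergenic, with signals of 291 and 271, near F55G7.5 and F22H10.2. Peak 14 had 242 and its summit in coding sequence, 15192 bases from the nearest annotated start, that of C41A3.2. Peaks 16 and 17, near the F-box gene fbxb-58 and T27A8.7, had 207 and 204.9. The 20 strongest X peaks as a whole had 15 intergenic summits and 5 in a gene start window, with a median distance to a gene start of 2145 bases. The 20 strongest autosomal peaks had 14 intergenic summits and 12 in a window, with a median distance of 423.5 bases. An intergenic summit can also lie in a window. All 20 X peaks ranked at 55 or better in replicate 1 and at 103 or better in replicate 2.

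**Figure D2:**
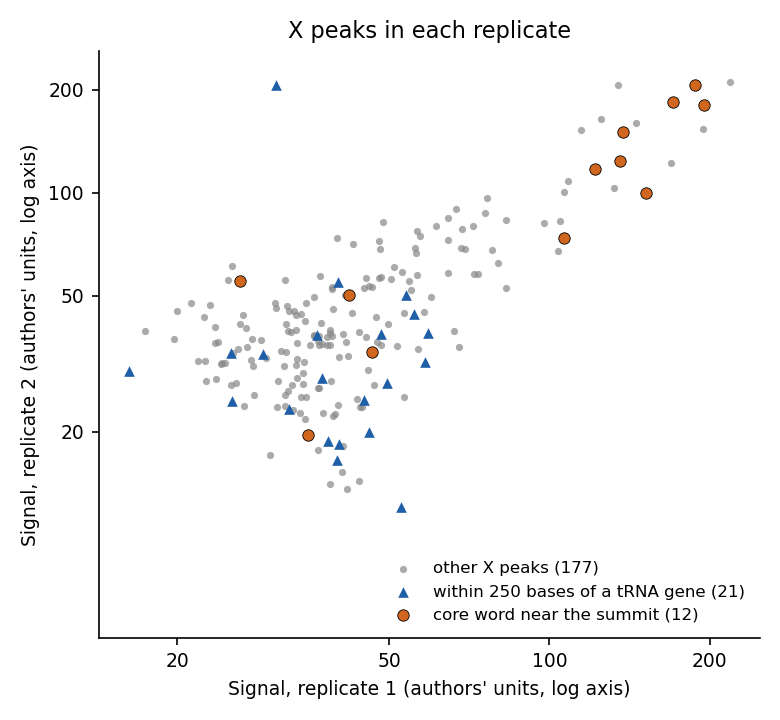
Signal of the 210 X peaks in replicate 1 (x axis) and replicate 2 (y axis), both in the authors' units on log axes, with orange circles for the 12 core peaks and blue triangles for the 21 peaks within 250 bases of a tRNA gene. The strongest core peaks sit at the upper right, and the triangle at the top left is peak 164, whose replicate 2 value of 206 is that of peak 2, the only replicate 2 region it overlaps.

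Strong X peaks at gene starts were fewer. The highest, peak 8, had a signal of 292 (169 and 121.8 in the replicates) and lay 290 bases upstream of puf-9, which encodes a Pumilio-family RNA-binding protein. Peak 18 had 191 (104.8 and 82.7) and lay 510 bases upstream of epn-1, the worm epsin, an adaptor of endocytosis. Peak 20 had 177.9 (97.6 and 81.7) and lay 266 bases upstream of nipi-3, a Tribbles-family pseudokinase gene. Below these came rpl-11.2, a gene of the large ribosomal subunit, with 174.5 (76.2 and 96.4). The microRNA pathway gene ain-1, a relative of GW182, had 170.9 (82.7 and 83.5), and the 14-3-3 gene ftt-2 had 170.8 (75.6 and 87.5). In each of the 6 the summit was upstream of the annotated start.

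Further down the list, dpy-23, which encodes a subunit of the AP2 clathrin adaptor, had a signal of 143 (68.1 and 68.8). The endoplasmic reticulum chaperone gene hsp-3 had 135 (56.3 and 77.2), and spc-1, alpha spectrin, had 132 (57.2 and 74.5). The bZIP factor gene cebp-1 had 119.7 (56.0 and 69.0), and the elongation factor gene eef-1A.2 had 113 (51.0 and 60.8). The values of all 5 peaks were higher in replicate 2 than in replicate 1, on a signal scale that may differ between the lists.

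Over all X peaks, 76 of 210 summits (36.2%, 29.99 to 42.9) were in a gene start window, against 435 of 820 (53.05%) on autosomes. The share in the reproducible list as a whole was 49.6%, and single autosomes ran from 47.4% to 58.6%. With the strongest 1030 regions of replicate 1 alone the shares were 34.6% on X and 49.9% on autosomes, and with those of replicate 2 they were 34.2% and 50.1%. Gene start windows covered 21.9% of X and from 24.6% to 31.7% of each autosome. Beside this coverage, shares were 48.3% for 29.6% on II, 54.2% for 31.7% on V and 47.4% for 24.6% on IV. On I and III they were 56.6% and 58.6%, each for 24.7%. Relative to coverage, the X share lay between those of II and V. The median distance from summit to start was 1573 bases on X and 761.5 bases on autosomes. On X 93 summits (44.3%) were over 2000 bases from any start, against 231 (28.2%) on autosomes. The density of genes was lower on X, 154 per megabase against from 187.6 to 239 on the autosomes. Its part in these shares was not tested.

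Counted by gene, 81 of 2731 protein-coding genes on X (2.97%, 2.39 to 3.67) had a summit in their window, and 578 of 17242 on autosomes (3.35%). The background over all 19973 genes was 3.30%, and single autosomes ran from 2.06% to 5.30%. The X share therefore lay within the range of the autosomes. When X summits were in a window they were nearly always upstream of the start, in 74 of 76 cases (97.4%), against 387 of 435 (89.0%) on autosomes. The median signal was nearly the same in both classes of X peaks, 76.7 inside windows and 76.6 outside.

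**Figure D3:**
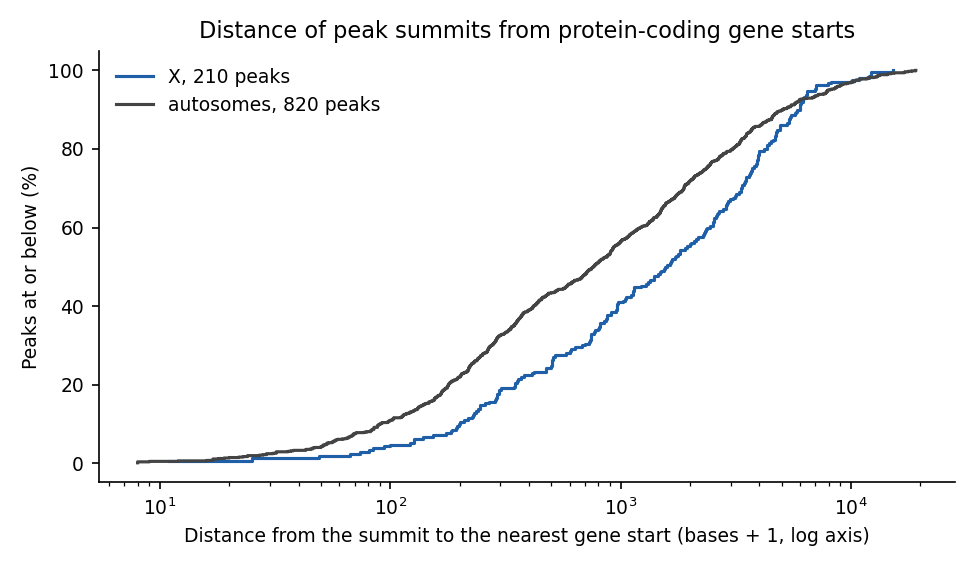
Share of peaks (y axis, percent) whose summit lies at or below a given distance from the nearest protein-coding gene start (x axis, bases + 1, log axis), for X and for autosomes. The X curve lies to the right of the autosomal curve over most of the range, with medians of 1573 and 761.5 bases.

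The share at gene starts is given next by rank of signal. Among autosomal peaks it was highest in the strongest 103 regions, at 62.3%, and fell to 54.2% for ranks 104 to 515, 50.5% for ranks 516 to 1030 and 29.3% in the weakest class of pooled candidates, ranks 10301 to 30000. On X the same classes gave 30.8%, 38.7%, 35.2% and 21.2%. In replicate 1 the first 3 classes on X had 33.3%, 33.3% and 36.2%, and in replicate 2 they had 35.5%, 37.97% and 30.4%, so the order of these X classes differed between lists. On autosomes the share fell from class to class in each of the 3 lists. In the strongest class the autosomal share was 64.5% in replicate 1 and 62.5% in replicate 2, above the X share in both.

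The share of regions on X was also highest in the strongest class. X held 26 of the strongest 103 peaks (25.2%, 17.8 to 34.4), 22.6% of ranks 104 to 515 and 17.7% of ranks 516 to 1030. The fall did not continue among the weaker pooled candidates. There X held 20% of ranks 1031 to 2060, 20.4% of ranks 2061 to 10300 and 19.6% of ranks 10301 to 30000. In the strongest class of the single replicates the share was 26.2% and 30.1%. Single autosomes held from 9 to 23 of the strongest 103 peaks, and III, with 23 on 13.8 megabases, held more for its length than X did with 26 on 17.7 megabases. X makes up 17.7% of the length of the 6 chromosomes and 13.7% of the protein-coding genes, and it carried 11.9 peaks per megabase. The autosomes together carried 9.93, with single ones from 6.88 to 13.2, so X lay within their range and below II (13.2) and III (12.3). The median signal was 76.6 on X (quartiles 64.5 and 107.9) and 73.1 on autosomes (62.2 and 98.3), with single autosomes from 71.6 to 74.4. Of X peaks 61 (29.0%) passed a signal of 100, against 24.0% on autosomes and from 19.5% to 26.9% on single ones.

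**Figure D4:**
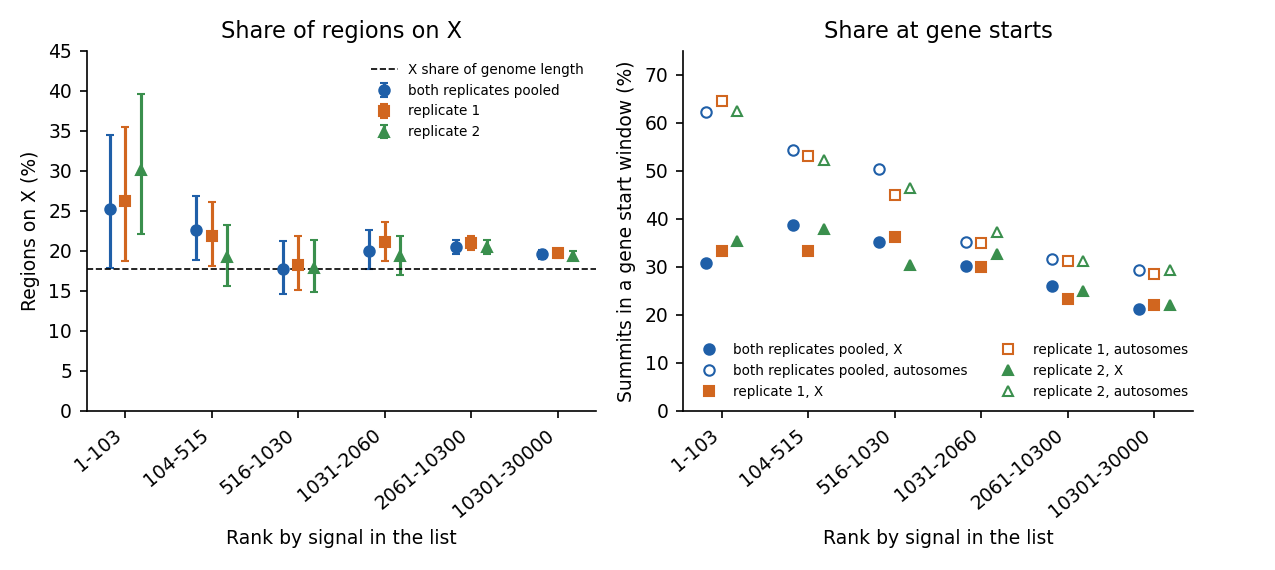
Share of regions on X (left, percent, bars are 95% Wilson intervals) and share of summits in a gene start window (right, percent) by rank class of signal, in the pooled list and in each replicate; the dashed line is the 17.7% of genome length on X. In the pooled list X holds 25.2% of the strongest 103 regions, and 30.8% of those X summits are at gene starts against 62.3% of the autosomal ones.

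By annotated feature, 124 X summits (59.0%) were intergenic, 51 (24.3%) in introns and 30 (14.3%) in exons of noncoding genes. The autosomal shares were 61.8%, 22.9% and 8.05%. Coding sequence held 2 X summits, 3′ UTRs held 2 and 5′ UTRs held 1, and the 5′ UTR share was 0.476% on X and 3.54% on autosomes. Of the 30 summits in noncoding exons 23 were in ncRNA genes, 4 in an ncRNA and a tRNA gene at once, 2 in tRNA genes and 1 in a snoRNA gene. Intergenic sequence makes up 42.02% of X, more than the 27.4% to 37.2% of each autosome.

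Around X summits the sequence was richer in G and C than its surroundings. The 50 bases to each side of the summit held 45.9% ± 8.42 G and C (SD, n = 210 peaks), against 35.7% in the flanks, and autosomal summits held 44.8% ± 8.33, also with 35.7% in the flanks. X summits inside gene start windows had 50.3% ± 7.32 and those outside 43.5% ± 8.004. On autosomes these means were 45.7% and 43.7%, so the gap between the classes was wider on X.

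The most common of the 12 words counted was GAGAGA, the kind of repeat bound by GAGA factors in flies. It was at 25.2% of X summits and at 29.5% of autosomal summits, and the X value lay inside the range of single autosomes, 23.9% to 35.3%. Its place differed. On X it was at 27 of 76 summits in gene start windows (35.5%) and at 26 of 134 outside (19.4%), while on autosomes it was at 24.6% inside and 35.1% outside. This split was added after the data were examined.

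Words found less often on X were ACGCAG, at 11.4% of X and 18.05% of autosomal summits, AGACGC, at 9.52% and 14.4%, and GCGCGC, at 1.90% and 5.98%. For ACGCAG and GCGCGC the X share was below that of every autosome. The shorter GCAGGG, which is part of the core, was at 21 X summits (10%) and 18 autosomal summits (2.20%). These counts include the 12 X summits and the 1 autosomal summit with the core, so the 2 words are not separate results. Half-sites of nuclear receptors were at few summits. AGGTCA was at 3.33% of X and 2.44% of autosomal summits, AAGTCA at 4.29% and 3.66%, and AGTTCA at 4.29% and 3.41%. In the flanks of X peaks the shares were 2.14%, 4.29% and 9.52%. The E-box CACGTG was at 5.24% and 6.46%, the GATA-type TGATAA at 4.76% and 5.73%, and TATAAA at 3.33% and 4.88%. All words were counted on both strands.

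**Figure D5:**
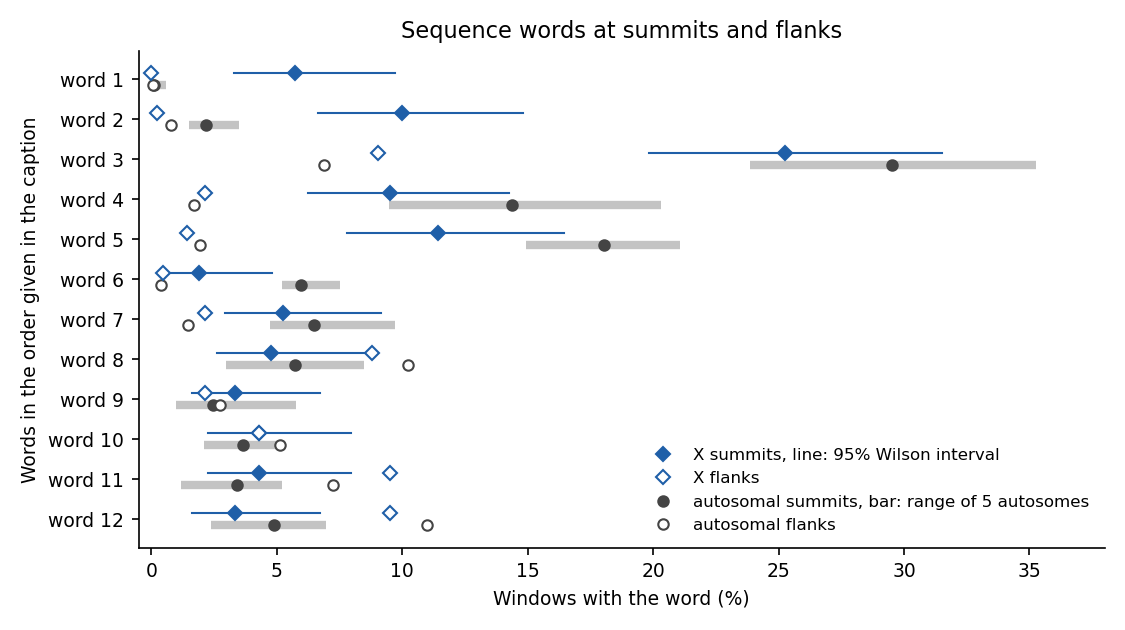
Share of windows (x axis, percent) that hold each of 12 words around summits and in flanks, for X (blue, with a 95% Wilson interval) and autosomes (dark, with a bar for the range of the 5 autosomes). Word 1 is GCGCAGGG and word 2 is GCAGGG, word 3 is GAGAGA, word 4 is AGACGC, word 5 is ACGCAG, word 6 is GCGCGC, word 7 is CACGTG, word 8 is TGATAA, word 9 is AGGTCA, word 10 is AAGTCA, word 11 is AGTTCA, word 12 is TATAAA; on X words 1 and 2 lie to the right of the autosomal bar.

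Across all 2080 words of 6 bases, counted with their reverse complements, the largest difference between X and autosomal summits in either direction was that of AAGAGG. It was at 37 X summits (17.6%, 13.1 to 23.3) and at 59 autosomal summits (7.20%), with 4.05% and 3.84% in the flanks. In the replicates alone it was at 14.2% and 15.3% of X regions, against 6.84% and 7.13% of autosomal regions. It was picked as the most extreme of many words. X peaks with it had a median signal of 77.5 and those without 76.1, and 2 of the 37 held the core near the summit. It was more frequent inside gene start windows of X (22.4%) than outside (14.9%).

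A further group of X peaks lay at tRNA genes. A summit lay within 250 bases of a tRNA gene for 21 of 210 X peaks (10%, 6.63 to 14.8) and for 6 of 820 autosomal peaks (0.732%). Transfer RNA genes are short genes read by RNA polymerase III, and X carries 276 of the 612 in the annotation, 15.6 per megabase against 4.07 on autosomes. Counted per tRNA gene, 25 of 276 on X (9.06%, 6.21 to 13.0) and 7 of 336 on autosomes (2.08%, 1.01 to 4.24) were near a summit. The summit was upstream of the closest tRNA gene in 13 cases, inside it in 6 and downstream in 2. By RefSeq product the closest gene was a glutamate tRNA gene in 5 of the 21, and the 21 were spread over 14 products. Of the 276 tRNA genes on X, 23 have the glutamate product.

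These peaks were of moderate signal, from 54.9 to 108 with a median of 65.2, against 77.6 for the other X peaks. The highest, with 108 in the pooled list, was 116 bases upstream of the glutamine tRNA gene R04A9.t1 and ranked 229 and 282 in the replicates. The next had 98.4, 58 bases upstream of the glutamate tRNA gene M02F4.t2, and ranked 211 and 386. Of the 21, 9 (42.9%) were among the strongest regions of both replicates, against 65.2% of all X peaks. The 9 include peak 164, which overlaps peak 2. The only replicate 2 region that peak 164 overlaps is that of peak 2. In replicate 1 alone 21 X regions (9.95%) were at tRNA genes and in replicate 2 there were 13 (6.44%). The group held 0 of the 20 strongest X peaks and 0 of the 12 core peaks.

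Most tRNA genes have close copies elsewhere in the genome. In 20 of the 21 under 90% of the 31-base words of the peak occurred once in the genome. On X 21 peaks in all (10%) were under that limit, and on autosomes 40 (4.88%). How the authors placed reads with several matches is not given in the sources used here, and its part in the tRNA result was not tested. None of the 12 core peaks and none of the 20 strongest X peaks was under the limit.

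The list of sex determination and dosage compensation genes was small. Of 23 listed genes 6 are on X, and 0 of the 6 and 0 of the 23 had a summit in the window. At the 3.30% of all genes a list of 23 would hold under 1, so the count is near the background. The closest X peak to xol-1 was peak 164, with a signal of 63.4, 4734 bases upstream of its start and beside peak 2. For sex-1, a nuclear receptor gene that acts in counting X chromosomes, the nearest summit was 7950 bases away, and for ceh-39, sdc-2, sdc-1 and fox-1 the distances were from 32516 to 76765 bases. Among the 20 strongest X peaks, peak 2 was the only one whose nearest annotated start belongs to this list.

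Other gene lists gave few X members. Of 27 genes on X named as nuclear hormone receptors 2 had a peak at the start, against 12 of 274 in the genome. They were nhr-48, with a signal of 117.7 (39.9 and 73.6 in the replicates), and nhr-1, with 85.5 (47.4 and 36.6). Of 2 cytosolic ribosomal protein genes on X 1 had a peak, rpl-11.2, and 42 of 81 in the genome did. The heat shock and chaperonin list had 2 of 5 on X, hsp-3 and the DnaJ-family gene dnj-14 (68.4), and 10 of 59 overall. The list of lipid metabolism had 0 of 10 on X (1 of 65 in the genome) and homeobox genes 0 of 22 (2 of 77). Collagen and cuticle genes had 1 of 38 on X (5 of 229 in the genome). The 1 on X was dpy-23, matched by its name and not a collagen. The heterochronic list had 1 of 5 on X, ain-1, and 2 of 13 in the genome. Shares of single lists rest on small numbers and are to be read against the 3.30% of all genes.

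Of the other short noncoding genes, X summits were within 250 bases of 0 microRNA genes, 0 snRNA genes and 1 snoRNA gene, C26G2.11. These were 0%, 0% and 0.476% of the 210 X peaks. The numbers of autosomal peaks were 3 (0.366%), 10 (1.22%) and 16 (1.95%) of 820. X has 74 microRNA genes, 3 snRNA genes and 33 snoRNA genes in the annotation, of 261, 129 and 346 in the genome.

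Along X the peaks were uneven. With the chromosome cut into 3 equal parts, the left part held 62 (29.5%), the middle 56 (26.7%) and the right 92 (43.8%, 37.3 to 50.6). The 12 core peaks went the other way, with 7, 3 and 2, while the 81 copies of the core word were spread as 30, 29 and 22. The median gap between neighbouring summits was 46335 bases. The smallest was 200 bases, found between peaks 23 and 88 and between peaks 29 and 201, and the largest was 711677 bases, from 3127889 to 3839566. In 19 of 209 gaps the summits were under 2000 bases apart.

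The last values concern the replicates. Of the 210, 137 (65.2%, 58.6 to 71.4) overlapped the strongest 1030 regions of both replicates, 67 those of 1 replicate and 6 of neither. On autosomes the share in both was 62.8%, with single chromosomes from 60.7% to 64.7%. By replicate, 176 X peaks (83.8%) were in the list of replicate 1 and 165 (78.6%) in that of replicate 2. The signals of the replicates had a Spearman correlation of 0.546 over 210 X peaks and of 0.442 over 817 autosomal peaks, as a description, since the peaks share their libraries. At the lower edge of the list, the last 4 X peaks had signals from 54.9 to 55.2, and the next 4 X candidates left out, near snrp-40.1, T23E7.2, igcm-3 and lin-14, had 54.0 to 54.5.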

How the data were processed

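The authors deposited peak lists on ce10 and ce11, with a signal per region that their caller assigned, per the accompanying text, by comparing the sample with a control; the scale, caller, aligner and read depth are not given in the sources used here, so no interval for a single signal can be given. Each candidate list holds 30000 regions. The reproducible list was kept by an irreproducible discovery rate threshold, and most regions have a fixed width of 356 bases. Coordinates are 1-based on ce11, and the reproducible ce10 list served only as an alternative for peak numbers, ranks and signals by chromosome. Summits were joined to Ensembl release 115, and sequence and tRNA products came from RefSeq (607 of 612 tRNA genes matched). Each replicate's strongest 1030 regions served as its own list, and a peak takes the replicate value of the overlapping region with the closest summit. Words were counted on both strands within 50 bases of a summit and in windows 300 bases to each side. Python 3.11.15, numpy 2.4.6, pandas 2.3.3 and scipy 1.17.1 were used, and the counting was tested on simulated data. With 1 group of 2 replicates no group comparison or test was made. Named peaks are the 20 strongest on X, those with the core, bound members of the gene lists and the 4 on each side of the list's edge; the gene start examples below the 20 strongest were taken in order of signal, with some left out, after their values were seen. Members, words and lists were chosen with earlier results of these data known.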

Additional observations from a re-analysis of the deposited data

How the results depend on the processing

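Of 72 recomputed values 47 stayed within a range set around the reported value and 25 moved out of it. For shares and the density ratio this range was the Wilson interval. For the ratio of median signals (1.036 to 1.059) and mean G and C (45.64% to 46.23%) it was the SD of the single-replicate values to each side. That range is narrow and is not a counting error. Some settings changed a definition or kept a subset of the peaks, so a move there is no measure of error. With gene start windows of 2000 bases 55.7% of X summits and 5.02% of X genes were counted, and with 500 bases 24.8% and 2.05%. The strongest 50% of peaks gave 65.5% intergenic summits, 1.61% of genes, 95.8% of X peaks in both replicates, a density ratio of X to autosomes of 1.40 (1.19 as reported, where II and III were denser than X) and a mean G and C of 47.5%. Intergenic summits were 69.5% when only protein-coding features counted. The ratio of median signals, 1.05 as reported, was 1.02 in the strongest 50%, 1.08 with peaks of both replicates, 1.06 in unique sequence and 1.03 to 1.05 in single replicates. Within 25 bases the core was at 2.86% of X summits, GAGAGA at 10.95% and 8.64% of core copies were near a summit, GAGAGA was at 41.4% within 100 bases, and 1 mismatch gave 14.3% for the core. Mean G and C was 45.01% to 45.4% in single replicates. It was 47.1% with peaks of both replicates, which gave 1.98% of genes, and 44.7% and 46.3% within 100 and 25 bases.

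In each replicate alone, the strongest 50%, the peaks of both replicates and those of unique sequence, the share at gene starts was lower on X than on autosomes, and the core was at 0 or 1 autosomal summits. No paired analysis was possible because there was 1 group only. The share of peaks in both replicates was not run for a replicate alone. Depth limits are unknown, since the lists hold no reads.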
